A study of Mus musculus with 27 samples.

Results

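The genes described here are those encoded by the mitochondrial DNA of the mouse. They were chosen by symbol, as all genes of the deposited E14 count table whose symbol begins with mt-. There were 37 of them among 55487 genes, comprising 2 ribosomal RNAs (rRNAs), 13 messenger RNAs (mRNAs) and 22 transfer RNAs (tRNAs). Counts were available for 27 libraries of the optic stalk (OS), the tube of neural tissue that carries the retinal axons from the eye to the brain. All embryos were on a C57Bl6/J background at embryonic day 14 (E14). Laser capture on frozen sections gave 3 pieces of each OS, labelled Dorsal, Ventral and Axons. The Control group had 4 embryos, littermates without Dct-Cre. The Mutant group had 5 embryos, Smarcc1-DCT-cKO, which were homozygous for the floxed Baf155 (Smarcc1) allele and carried Dct-Cre and the Z/EG reporter. Dct is a pigment cell gene, and cells of a piece in which this Cre was never active are spared. The study also reports activity of this Cre in the developing OS, first dorsal and later ventral. By antibody labelling it found Smarcc1 lost from the whole OS of mutants at E14. Batch A held 1 control and 3 mutant embryos, and batch B held 3 controls and 2 mutants. The number in a sample title was taken as the embryo, so that the 3 pieces with 1 number and genotype were treated as coming from 1 animal.

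Mitochondria keep a small circular genome that is transcribed from both strands into long precursors, which are cut at the tRNAs to release the rRNAs and mRNAs. The 2 rRNAs form the core of the mitochondrial ribosome. The mRNAs encode subunits of complexes I, III and IV of the respiratory chain and of the ATP synthase, and the tRNAs serve their translation. All other proteins of these complexes, and those that copy, transcribe and process mitochondrial DNA, come from nuclear genes. In retinal ganglion cells mitochondria travel from the cell body along the axon.

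Not every gene of the set could be counted in these data. The mm10 mitochondrial genome has 16299 bases, and a stretch of chromosome 1 (24611535 to 24616188, minus strand) repeats its positions 6390 to 11042. This nuclear copy was 99.936% identical over 4654 aligned positions and differed at 3 of them, 1 of which was a gap. The reads were 150 bases long and single-end. A 150-base window that lies in both places cannot be assigned to either by sequence, and the counting tool by default leaves such reads out. For mt-Co2, mt-Atp8, mt-Atp6, mt-Co3 and mt-Nd4l, 0 windows that touch that gene alone were found only once in mm10. For mt-Nd3 it was 3 of 200 windows, for mt-Nd4 503 of 1223 and for mt-Co1 1067 of 1394. All windows were unique in the 2 rRNAs and in mt-Nd1, mt-Nd2, mt-Nd5, mt-Nd6 and mt-Cytb.

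The following sequences are shown because they mark the difference between a gene with a few unique windows, mt-Nd3, and one with 0, mt-Co2. They give 100 bases of mt-Nd3 (chrM:9411-9510, plus strand) and of its copy (chr1:24613068-24613167, minus strand, mm10), 5′ to 3′, with the base that differs in capitals. The difference is T9461C, with the position counted along the mitochondrial genome, the mitochondrial base first and the base of the copy last. The other pair of sequences is a stretch of mt-Co2 (chrM:7305-7404) with its copy (chr1:24615174-24615273, minus strand), without a difference.
mt-Nd3, mitochondrial DNA: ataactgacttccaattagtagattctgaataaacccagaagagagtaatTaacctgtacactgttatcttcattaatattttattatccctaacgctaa
mt-Nd3, nuclear copy: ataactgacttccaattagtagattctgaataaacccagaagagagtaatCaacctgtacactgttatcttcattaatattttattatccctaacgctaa
mt-Co2, mitochondrial DNA: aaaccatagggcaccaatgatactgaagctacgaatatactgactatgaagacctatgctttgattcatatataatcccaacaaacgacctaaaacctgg
mt-Co2, nuclear copy: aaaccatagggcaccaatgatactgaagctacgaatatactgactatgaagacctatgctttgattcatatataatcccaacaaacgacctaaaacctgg

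mt-Co2, which encodes a catalytic subunit of complex IV, had 1 count in all 27 libraries together. mt-Atp8, mt-Atp6 (ATP synthase subunits) and mt-Nd4l (a complex I subunit) had 0 counts, which allows at most 0.0883 to 0.275 CPM (counts per 1000000 counts of the library, from a floor of 3 counts) in a library. mt-Co3, another subunit of complex IV, had 70 counts, all in the axon library of mutant embryo 5 (3.11 CPM). mt-Nd3, a complex I subunit, stood between 4.33 and 27.1 CPM. For these 6 genes the counts give no level of the RNA. The other 7 mRNAs and the 2 rRNAs, 9 genes in all, had at least 4960 counts in each library, and the comparisons rest on them.

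**Figure D1:**
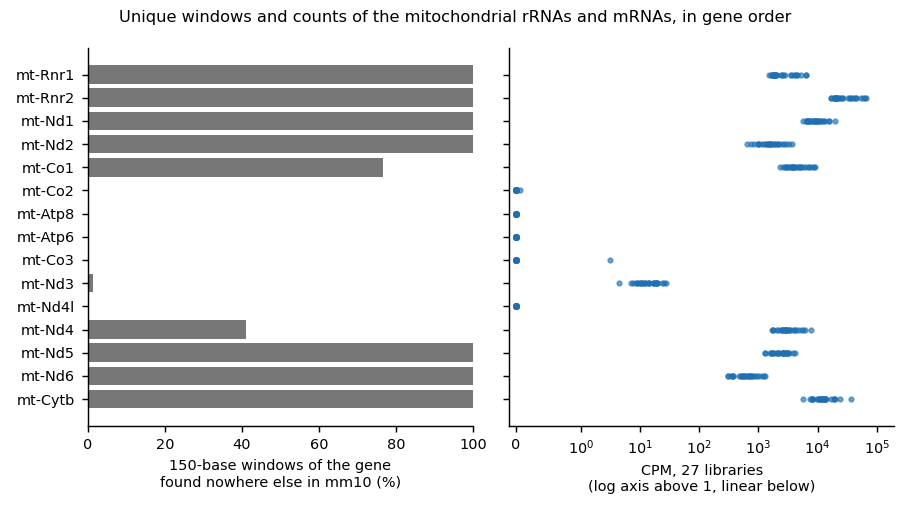
Mitochondrial rRNAs and mRNAs in the order of their positions. Left, bars give the percentage of a gene's 150-base windows that occur once in mm10. Right, each point is the CPM of 1 of the 27 libraries, on an axis that is logarithmic above 1 and linear below. The 5 genes with 0 unique windows lie at 0 except for 1 library each of mt-Co2 and mt-Co3, and mt-Nd3, with 3 unique windows, lies between 4.33 and 27.1 CPM.

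The libraries held 10899418 to 33980417 counts. Reads came from amplified cDNA without molecular identifiers, so intervals and floors cover counting error only. Smarcc1 stood at 75.9 to 289 CPM in dorsal controls and 2.26 to 107 CPM in dorsal mutants, which overlapped, the libraries labelled mutant 1 and mutant 2 lying among the controls. It stood at 75.7 to 198 CPM in ventral controls against 14.7 to 64.4 CPM in ventral mutants, and at 50.1 to 242 CPM in axon controls against 1.86 to 44.9 CPM in axon mutants. The summed CPM of 14 axon and neuron markers was 3953 to 6733 CPM in axon controls and 5512 to 8283 CPM in axon mutants, against 346 to 2103 CPM and 579.6 to 1168 CPM in the dorsal and 629 to 2457 CPM and 638 to 1474 CPM in the ventral pieces. Within that list Nefh, Pou4f1 and Pou4f2 were at 0 in all axon controls, and Nefh and Pou4f2 in all axon mutants.

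Mitochondrial genes took a larger share of the counts in the axon pieces than in the other pieces of the same embryo, in all 9 embryos. In controls the share was 4.43, 5.63, 5.26 and 5.21% of the total count in the dorsal pieces of embryos 1 to 4. In the same embryos it was 4.37, 7.61, 5.58 and 3.72% in the ventral pieces. In the axon pieces it was 8.64, 10.8, 15.4 and 8.65%. The lowest axon value of the controls lay above all their dorsal and ventral values, and embryo 3 stood out as the highest. In mutants the share was 5.35, 6.08, 4.19, 7.63 and 5.79% in the dorsal pieces of embryos 1 to 5. It was 4.79, 4.26, 5.43, 5.43 and 5.61% in their ventral pieces. It was 8.85, 7.49, 12.1, 12.2 and 10.5% in their axon pieces. In the mutants the highest dorsal value, embryo 4, exceeded the lowest axon value, embryo 2, while ventral and axon values did not overlap. The lowest share of all, in the ventral piece of control 4, had a 95% Wilson interval of 3.707 to 3.726%, so counting error was small beside the spread between embryos.

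Over the dorsal pieces the mean share was 5.13 ± 0.501% (SD, n = 4) for controls and 5.81 ± 1.25% (SD, n = 5) for mutants, and over the ventral pieces it was 5.32 ± 1.71% (SD, n = 4) and 5.11 ± 0.568% (SD, n = 5). Over the axon pieces it was 10.9 ± 3.17% (SD, n = 4) for controls and 10.2 ± 2.04% (SD, n = 5) for mutants. In ascending order the groups ran from mutant ventral over control dorsal, control ventral and mutant dorsal to mutant axons and control axons. Neighbours in this order differed by less than their SD, except for the step from mutant dorsal to mutant axons. Within embryos the axon share was 1.66 to 2.92 times the dorsal share in controls and 1.23 to 2.88 times in mutants. It was 1.42 to 2.75 times the ventral share in controls and 1.76 to 2.24 times in mutants. The ventral to dorsal quotient lay on both sides of 1, being above 1 in 2 of 4 controls and 1 of 5 mutants. In batch A the axon to dorsal quotient was 1.23 to 2.88 over 4 embryos, and in batch B 1.6 to 2.92 over 5 embryos. No test was made on these sums, which hold almost no counts of the mRNAs inside the nuclear copy. In pieces of tissue, fewer cells of a type and less RNA per cell cannot be told apart, and a share cannot tell more mitochondrial RNA from less RNA of other genes.

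**Figure D2:**
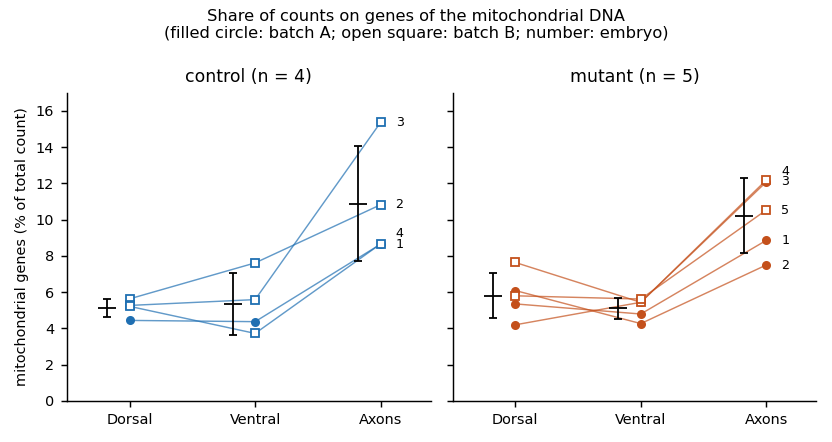
Share of the total count on mitochondrial genes (%) in each piece of the OS, controls left and mutants right. A line joins the 3 pieces of 1 embryo, symbols mark the batch, and black bars give the mean ± SD of each group. All 9 lines are highest in the axon piece, with 7.49 to 15.4% there against 3.72 to 7.63% in the dorsal and ventral pieces.

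Among the 9 well counted genes, the 2 rRNAs had the largest log2 fold changes between axons and the other regions in the controls. mt-Rnr2 (chrM:1094-2675, the rRNA of the large subunit of the mitochondrial ribosome) was the most counted member. In controls 1 to 4 it stood at 19437, 24917, 22247 and 19902 CPM in the dorsal, 19547, 35938, 21449 and 16678 CPM in the ventral and 45592, 55039, 65517 and 44642 CPM in the axon pieces. In mutants 1 to 5 it stood at 20183, 26882, 16692, 32294 and 19550 CPM in the dorsal, 20031, 19138, 22657, 25854 and 21261 CPM in the ventral and 39039, 35846, 58498, 64292 and 40700 CPM in the axon pieces. In both genotypes every axon library lay above every dorsal and every ventral library. Genes were tested with edgeR over all genes that passed the count filter, with the embryo as a block, and a gene is named as called, or as having risen or fallen, where its Benjamini-Hochberg adjusted p was under 0.05 and its log2 fold change beyond 0.58 in size. In axons against dorsal, mt-Rnr2 rose 2.77-fold in controls, a log2 fold change of 1.47 ± 0.14 (SE) at an adjusted p (edgeR) of 0.0028, and 2.29-fold in mutants, 1.20 ± 0.15 (SE) at an adjusted p (edgeR) of 0.00183. In axons against ventral, the log2 fold change was 1.40 ± 0.14 (SE) in controls (edgeR adjusted p 0.011) and 1.28 ± 0.15 (SE) in mutants (edgeR adjusted p 0.00127).

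mt-Rnr1 (chrM:70-1024, the rRNA of the small subunit) had fewer counts than mt-Rnr2 and also stood highest in the axon pieces. In controls 1 to 4 it stood at 2021, 2066, 1862 and 1745 CPM in the dorsal, 1861, 2797, 1899 and 1488 CPM in the ventral and 4543, 4152, 6485 and 4508 CPM in the axon pieces. In mutants 1 to 5 it stood at 1919, 2388, 1677, 2527 and 1609 CPM in the dorsal, 1775, 1866, 2605, 1912 and 1787 CPM in the ventral and 3938, 3570, 6298, 5339 and 3504 CPM in the axon pieces. Axon values overlapped with neither of the other regions in either genotype. mt-Rnr1 rose in axons against dorsal by a log2 fold change of 1.54 ± 0.18 (SE) in controls (edgeR adjusted p 0.00997) and 1.29 ± 0.16 (SE) in mutants (edgeR adjusted p 0.00135). Against ventral it rose by 1.5 ± 0.18 (SE) in controls (edgeR adjusted p 0.02) and 1.33 ± 0.16 (SE) in mutants (edgeR adjusted p 0.0012). The mt-Rnr2 to mt-Rnr1 count quotient was 11.3 ± 1.13 (SD, n = 4) in dorsal controls, 11.5 ± 0.988 (SD, n = 4) in ventral controls and 10.8 ± 1.62 (SD, n = 4) in axon controls, so these regional means differed by less than their spread. The mutant means were 11.3 ± 1.15, 11.1 ± 1.80 and 10.6 ± 1.18 (SD, n = 5 each). Without control 1, 0 mitochondrial genes were called in either axon comparison, and likewise without control 3, and in axons against ventral also without control 4. The log2 fold changes over these fits stayed at 1.39 to 1.64 (mt-Rnr1) and 1.37 to 1.53 (mt-Rnr2) against dorsal and at 1.33 to 1.76 and 1.26 to 1.62 against ventral.

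Of the mRNAs, mt-Co1 (chrM:5328-6872), the catalytic core of complex IV that reduces oxygen, was called in all 4 axon comparisons. In controls 1 to 4 it stood at 3073, 4675, 3781 and 4031 CPM in the dorsal, 2894, 5853, 4147 and 2823 CPM in the ventral and 5168, 9059, 8564 and 5072 CPM in the axon pieces. In mutants 1 to 5 it stood at 3643, 2612, 3485, 4708 and 3912 CPM in the dorsal, 3395, 2334, 4060, 3046 and 3665 CPM in the ventral and 5273, 6387, 8195, 7153 and 7099 CPM in the axon pieces. In controls the axon and ventral values overlapped, through ventral control 2, and the axon and dorsal values did not. In mutants the axon values overlapped with neither of the other regions. The log2 fold change of mt-Co1 was 0.99 ± 0.14 (SE) against dorsal and 1.03 ± 0.14 (SE) against ventral in controls, at adjusted p-values (edgeR) of 0.0227 and 0.0431. In mutants it was 1.06 ± 0.13 (SE) and 1.23 ± 0.13 (SE), at adjusted p-values (edgeR) of 0.00181 and 8.01e-04. With limma voom in place of edgeR, mt-Co1 was not called in any of the 4 comparisons, its adjusted p lying between 0.755 and 0.871. Over all alternatives its call in controls was lost in 8 of 14 against dorsal and 9 of 14 against ventral. In mutants it was lost in 1 of 15 against each region.

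mt-Cytb (chrM:14145-15288) encodes cytochrome b, the mitochondrial subunit of complex III. It stood at 8011, 9775, 10077 and 10453 CPM in dorsal controls and 14018, 17191, 36280 and 13130 CPM in axon controls, which did not overlap, and control 3 had by far the highest axon value. In mutants it stood at 11777, 12454, 7463, 13434 and 12917 CPM in the dorsal and 19926, 11808, 18848, 18732 and 24420 CPM in the axon pieces, where the axon value of mutant 2 lay below 3 of the dorsal values. In the ventral pieces it ranged from 5611 to 13165 CPM in controls and from 8094 to 12578 CPM in mutants. mt-Cytb rose in axons in mutants, by a log2 fold change of 0.82 ± 0.17 (SE) against dorsal (edgeR adjusted p 0.0489) and 1.03 ± 0.17 (SE) against ventral (edgeR adjusted p 0.0124). The call against dorsal was lost in 10 of 15 alternatives and that against ventral in 4 of 15. In controls its log2 fold changes were 1.12 ± 0.23 (SE) and 1.21 ± 0.22 (SE), at adjusted p-values (edgeR) of 0.122 and 0.147.

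The 5 counted complex I mRNAs, mt-Nd1, mt-Nd2, mt-Nd4, mt-Nd5 and mt-Nd6, encode subunits of the membrane arm of the enzyme that takes electrons from NADH. In axons against ventral in mutants all 5 rose, by log2 fold changes from 0.88 (mt-Nd1) to 1.32 (mt-Nd2), with edgeR adjusted p-values from 5.53e-04 (mt-Nd5) to 0.0174 (mt-Nd6). In axons against dorsal in mutants 2 rose, mt-Nd2 by 0.86 ± 0.16 (SE) (edgeR adjusted p 0.0251) and mt-Nd4 by 0.81 ± 0.15 (SE) (edgeR adjusted p 0.0236). These calls were lost in 8 of 15 (mt-Nd2) and 7 of 15 (mt-Nd4) alternatives. mt-Nd5 had an edgeR adjusted p of 0.048 there, with a log2 fold change of 0.51 that did not reach the size threshold. In controls 0 of the 5 were called with edgeR in either axon comparison. Their log2 fold changes in controls lay between 0.59 (mt-Nd6) and 0.98 (mt-Nd1) against dorsal, and between 0.87 (mt-Nd5) and 1.08 (mt-Nd2) against ventral, and all 5 had an unadjusted p under 0.05 in both. In controls limma voom called mt-Nd2 and mt-Nd4 against both regions, and DESeq2 called the same pair against ventral and none of the 5 against dorsal.

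mt-Nd1, mt-Nd2 and mt-Nd5 show how far the regions overlapped. mt-Nd1 (chrM:2751-3707), the most counted of the 5, stood at 6665, 6747, 6279 and 8855 CPM in dorsal controls and 9255, 12034, 19569 and 10513 CPM in axon controls, which did not overlap. In mutants its values were 8747, 9649, 6688, 12789 and 11380 CPM in the dorsal and 10552, 9240, 15675, 13382 and 15396 CPM in the axon pieces, which did. mt-Nd2 (chrM:3914-4951) stood at 842, 735, 1141, 1576 and 1596 CPM in ventral mutants and 2229, 1607, 2717, 2966 and 3229 CPM in axon mutants, and the lowest axon value was just above the highest ventral value. mt-Nd5 (chrM:11742-13565) stood at 1564, 1267, 1609, 2029 and 2179 CPM in ventral mutants, 2580, 2264, 2123, 2944 and 2579 CPM in dorsal mutants and 2627, 2987, 3107, 3307 and 3852 CPM in axon mutants, where the axon values lay above the ventral values and overlapped with the dorsal values. mt-Nd4 (chrM:10167-11544) ranged from 1699 to 7859 CPM over all libraries. mt-Nd6 (chrM:13552-14070) is the one mRNA encoded on the minus strand and ranged from 302 to 1275 CPM. The library kit does not mark strand, so reads of mt-Nd6 and of precursors that run antisense through it, or through its overlap with mt-Nd5, cannot be told apart.

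**Figure D3:**
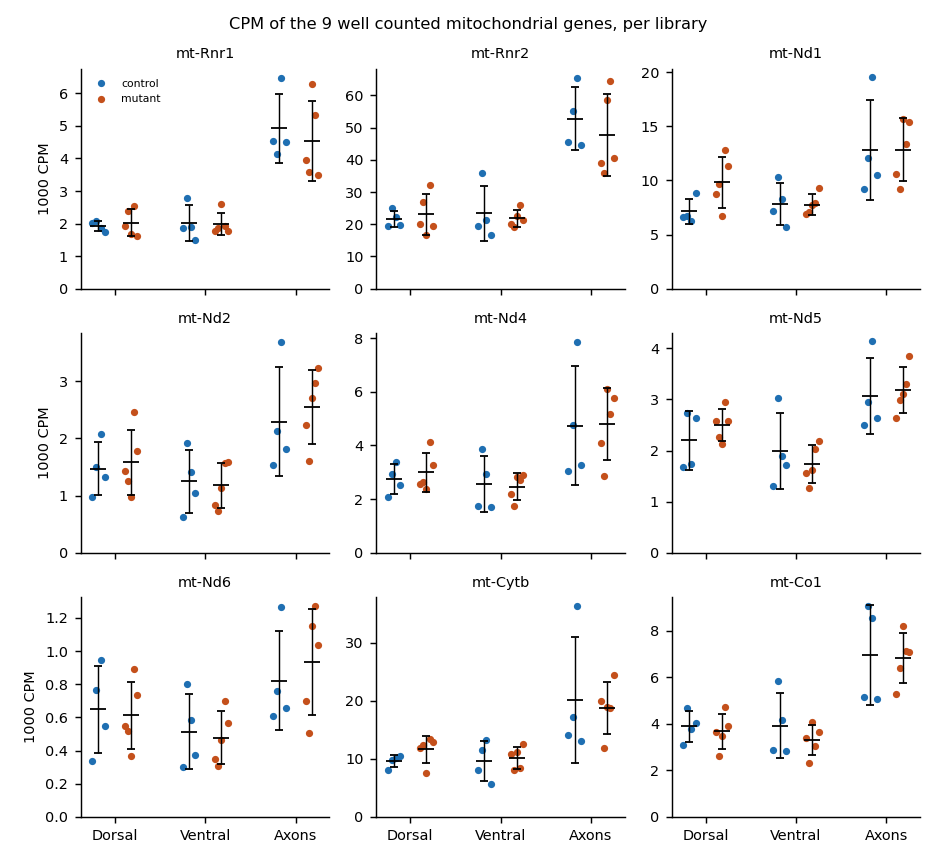
CPM (axis in units of 1000) of the 9 well counted mitochondrial genes in each library, by region and genotype, with the mean ± SD of each group in black. The axon means are the highest of the 3 regions in both genotypes for all 9 genes, and of these 9 only mt-Rnr1 and mt-Rnr2 have all axon libraries above the dorsal and ventral libraries in both genotypes.

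Counted over the set, 23 of the 37 genes passed the filter, the 2 rRNAs, 8 mRNAs (the counted 7 and mt-Nd3) and 13 tRNAs. In axons against dorsal 3 of the 23 were called in controls, all higher in axons, where 0.209% of all genes tested were called higher and 0.222% in either direction. In axons against ventral in controls it was again 3, beside 0.0554% of all genes, none of which was called lower. In mutants 6 were called higher in axons against dorsal, beside 0.456% higher and 0.634% in either direction. Without any one of mutants 1, 3, 4 and 5 it was 3. In axons against ventral in mutants 9 were called higher, beside 0.443% and 0.517%. All called members were among the 9 well counted genes. The dorsal and ventral comparisons of a genotype share its axon libraries. The median log2 fold change of the 9 genes was 0.98 and 1.05 in controls and 0.82 and 1.14 in mutants (against dorsal and ventral), beside medians over all genes tested of -0.37, -0.38, -0.96 and -0.99. Among the 2108 genes with a mean of at least 100 CPM those medians were 0.25, 0.08, 0.05 and -0.04. Of these 2108, which include the 9 genes, 34, 8, 74 and 71 were called higher in axons in the same order. Nearly all calls thus lay among well counted genes, and the shares over all genes are lower than among genes of like level. The axon libraries had a count for 9225 to 14118 genes and the others for 10881 to 16810, ranges that overlapped in controls and not in mutants. Within embryos the axon piece had fewer such genes than both other pieces, except in control 3, where it had more than the dorsal piece.

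**Figure D4:**
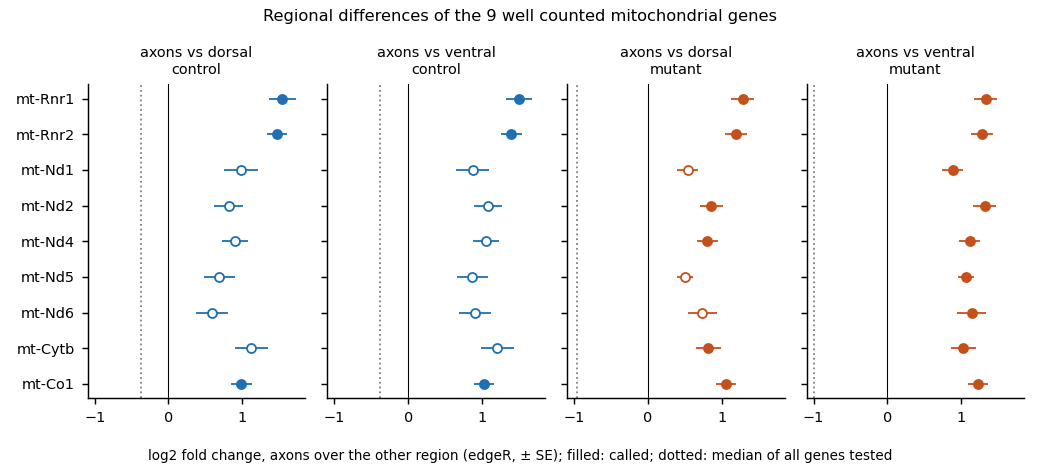
Log2 fold change (± SE, edgeR) of the 9 well counted genes in axons over dorsal and over ventral pieces, in controls (blue) and mutants (orange). Filled points passed the call and the dotted line is the median of all genes tested. All 36 points lie above 0, between 0.51 and 1.54, while the dotted lines lie between -0.99 and -0.37.

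The libraries were also compared one by one in CPM. Every control axon library lay above every control dorsal library for 5 of the 9 genes (mt-Rnr1, mt-Rnr2, mt-Nd1, mt-Co1 and mt-Cytb), where 1.5% of all genes did so. Against the ventral controls it was 2 (the rRNAs), beside 1.11%. In mutants it was 3 against dorsal (the rRNAs and mt-Co1), beside 1.06%, and 5 against ventral (the rRNAs, mt-Nd2, mt-Co1 and mt-Nd5), beside 0.842%. Within embryos, 5 of the 9 genes (the rRNAs, mt-Nd2, mt-Co1 and mt-Nd4) were higher in the axon than in the dorsal piece of all 9 embryos, which held for 0.894% of all genes. For axon against ventral pieces it was 7 (the former 5, mt-Nd1 and mt-Cytb), beside 0.931%. The percentages cover all genes passing the filter, while mt-Nd3 and the passing tRNAs were left out of the member counts. Of these, mt-Tf, mt-Tv and mt-Tc also lay higher in every control axon than in every control dorsal library. Against ventral controls mt-Tv and mt-Tr did so, and these tRNAs stayed at or below 5.07 CPM. The rest overlapped, as did all of them in mutants. Within embryos, of these only mt-Tm was above dorsal in all 9, and only mt-Tf above ventral.

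Levels of different genes were compared per 1000 unique 150-base windows, as medians over the 27 libraries. mt-Rnr2 came first with 17388 CPM, followed by mt-Cytb with 11808 and mt-Nd1 with 11464. mt-Nd4 followed at 5829, mt-Co1 at 3805 and mt-Rnr1 at 2560. mt-Nd2, mt-Nd6 and mt-Nd5 were lowest, at 1777, 1717 and 1553. The ranges of neighbours in this order overlapped over the libraries, that of mt-Rnr2 (11639 to 45720) and mt-Cytb (5611 to 36280) included. This scale corrects for the number of unique windows only, not for how well each RNA was reverse transcribed. The windows used touch no other gene on either strand. With genes of the own strand only, mt-Nd6 had 519 windows in place of 356, mt-Nd5 1824 in place of 1661 and mt-Cytb 1144 in place of 1000. The order of mt-Nd6 and mt-Nd5, and of mt-Cytb and mt-Nd1, therefore depends on the strand setting of the counts, which is not given.

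The summed rRNA counts stood higher relative to the summed mRNA counts in the axon pieces than in the other pieces of the same embryo. In controls the rRNA to mRNA quotient was 0.940, 0.925, 0.852 and 0.712 in the dorsal, 0.965, 1.04, 0.721 and 0.959 in the ventral and 1.39, 1.21, 0.885 and 1.32 in the axon pieces of embryos 1 to 4. In mutants it was 0.706, 0.933, 0.782, 0.841 and 0.578 in the dorsal, 0.840, 0.975, 0.873, 1.05 and 0.702 in the ventral and 0.947, 1.11, 1.16, 1.34 and 0.727 in the axon pieces of embryos 1 to 5. The quotient was higher in the axon piece than in both other pieces of all 9 embryos, although the groups overlapped. Mutant 5 had the lowest value of the mutants in every piece, and control 3 the lowest control value in the ventral and axon pieces. Group means were 0.857 ± 0.104, 0.921 ± 0.139 and 1.20 ± 0.223 in dorsal, ventral and axon controls (SD, n = 4 each) and 0.768 ± 0.135, 0.888 ± 0.134 and 1.06 ± 0.232 in the mutants (SD, n = 5 each). Within embryos the axon quotient was 1.04 to 1.86 times the dorsal and 1.04 to 1.44 times the ventral one. It was 1.19 to 1.48 times the dorsal one in batch A and 1.04 to 1.86 times in batch B. The ventral quotient exceeded the dorsal one in 8 of 9 embryos, control 3 being the exception. The mRNA sum held almost only the well counted mRNAs. mt-Co2, mt-Atp8, mt-Atp6, mt-Co3, mt-Nd3 and mt-Nd4l added little or nothing to it, and mt-Nd4 and mt-Co1 lie partly inside the nuclear copy. The quotients are therefore not ratios to the RNA of all 13 mRNAs.

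**Figure D5:**
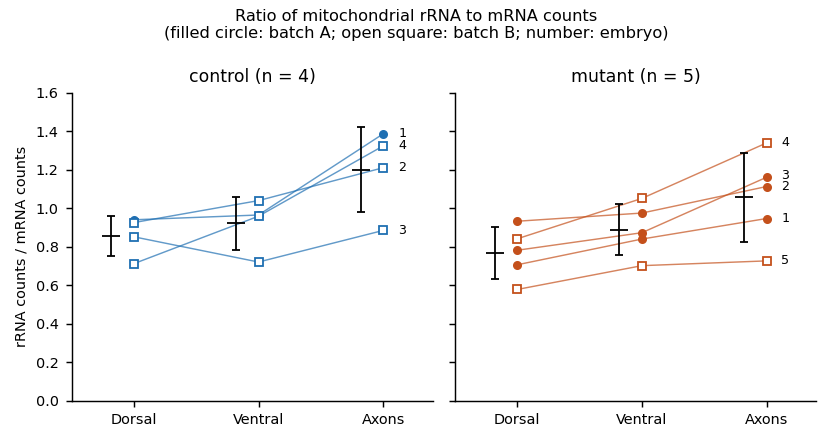
Summed counts of the 2 mitochondrial rRNAs over those of the 13 mRNAs in each piece, controls left and mutants right, with 1 line per embryo, the batch as symbol and the mean ± SD of each group in black. Almost all of the mRNA counts came from the well counted mRNAs. All 9 lines are highest in the axon piece, where the values run from 0.727 to 1.39.

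mt-Cytb contributed 34.4 to 38.5% of the mitochondrial mRNA counts as group means, mt-Nd1 25.6 to 29.8% and mt-Co1 11.4 to 14.2%. mt-Cytb was 34.7 ± 0.898% (SD, n = 4) of them in the dorsal against 38.5 ± 4.40% (SD, n = 4) in the axon pieces of controls, a difference within the spread. These percentages hold almost no counts of the 6 genes inside the nuclear copy, and mt-Nd4 and mt-Co1 lie partly inside it. They are therefore not shares of all mitochondrial mRNA.

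The tRNAs were counted sparsely. Of the 22, 13 passed the filter, 15 had a count in any library and 7 had none. mt-Tq, the glutamine tRNA, had 31.9 to 214 CPM and mt-Tp, the proline tRNA, 5.03 to 51 CPM, and the other 11 that passed stayed at or below 5.07 CPM (mt-Tc). These 11 were mt-Tf, mt-Tv, mt-Tl1, mt-Ti, mt-Tm, mt-Ta, mt-Tc, mt-Tr, mt-Tl2, mt-Te and mt-Tt. Both well counted tRNA genes lie on the minus strand, and their sequences, much shorter than a read, are shown on that strand (chrM:3772-3842 and chrM:15356-15422).
mt-Tq: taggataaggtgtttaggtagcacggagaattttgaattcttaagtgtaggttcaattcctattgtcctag
mt-Tp: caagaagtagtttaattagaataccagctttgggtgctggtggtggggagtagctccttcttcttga
Of all tRNA genes, mt-Tp was the only one with 150-base windows that touch no other gene on either strand, 67 of them, since the gene borders the non-coding control region. mt-Tq had 0 such windows and 220 when only genes of its own strand were considered. Reads over these genes can therefore come from precursors or their antisense strand, and are not counts of mature tRNAs. With edgeR 0 of the 13 tRNAs were called in any of the 12 comparisons, 0 had an unadjusted p under 0.05, and DESeq2 and limma voom called 0. mt-Tq stood at 88.5 ± 68.3 CPM (SD, n = 4) in dorsal controls and 127 ± 66.6 CPM (SD, n = 4) in axon controls, a log2 fold change of 0.93 ± 0.68 (SE) at an adjusted p (edgeR) of 0.855.

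Between dorsal and ventral pieces no mitochondrial gene was called with edgeR. In controls 0 of 23 were called, beside 0% of all genes, with 0 at an unadjusted p under 0.05, and DESeq2 and limma voom also called 0. In mutants 0 were called with edgeR, beside 0.0246% of all genes, with 3 at an unadjusted p under 0.05. All 9 well counted genes were lower in ventral than in dorsal mutants in the fit, by log2 fold changes from -0.56 (mt-Nd5) to -0.04 (mt-Rnr1), at adjusted p-values (edgeR) of 0.185 or more. DESeq2 called mt-Nd5 there, and limma voom called mt-Nd4, both lower in ventral.

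No mitochondrial gene was called between the genotypes with edgeR in any region, in fits with batch as a term. In the dorsal pieces 0 of 23 were called, beside 0.0124% of all genes, with 4 at an unadjusted p under 0.05 (mt-Nd1, mt-Cytb, mt-Nd4 and mt-Nd5). DESeq2 and limma voom called 0 there. The 9 well counted genes had log2 fold changes of mutant over control between 0.09 (mt-Co1) and 0.60 (mt-Nd1, edgeR adjusted p 0.699), beside a median of -0.04 over all genes. mt-Nd1 stood at 7137 ± 1164 CPM (SD, n = 4) among the controls and 9851 ± 2358 CPM (SD, n = 5) among the mutants in this region, whose values overlapped. In the ventral pieces 0 were called, beside 0% of all genes, with 0 at an unadjusted p under 0.05 and 0 calls by DESeq2 or limma voom. Log2 fold changes there lay between -0.17 (mt-Co1) and 0.25 (mt-Nd2). In the axon pieces 0 were called with edgeR, beside 0% of all genes, with 0 at an unadjusted p under 0.05 and 0 by DESeq2, while limma voom called mt-Nd2 and mt-Nd4 higher in mutants. Log2 fold changes there lay between -0.12 (mt-Rnr1) and 0.35 (mt-Nd6). The dorsal edgeR fit also called 0 of 9 pigment cell markers, although all 9 had log2 fold changes above 0, with a median of 2.25. Tyr, chosen after its values were seen, stood at 0 to 122 CPM in dorsal controls and 427 to 920 CPM in dorsal mutants. The lack of a call between genotypes therefore does not show an unchanged level.

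Within batch B the dorsal share of the mitochondrial genes was 5.37 ± 0.227% (SD, n = 3) for controls against 6.71 ± 1.30% (SD, n = 2) for mutants, with 5.64 ± 1.95% and 5.52 ± 0.128% in the ventral and 11.6 ± 3.42% and 11.4 ± 1.17% in the axon pieces. In batch A the single control had 4.43, 4.37 and 8.64% in the dorsal, ventral and axon pieces, and the 3 mutants 5.21 ± 0.954, 4.83 ± 0.589 and 9.47 ± 2.35% (SD). Only the dorsal difference in batch B reached the spread of a group, and it rested on 2 mutant embryos. The genotype effect did not pass the test of a difference between regions for any member, with 0 of 23 called and 0 at an unadjusted p under 0.05 in each of the 3 edgeR interactions, and 0 called by DESeq2 and limma voom. Of all genes, 0.00612% were called for dorsal against ventral, 0.0122% for dorsal against axons and 0% for ventral against axons. For dorsal against axons the log2 interaction of the 9 genes (mutant effect in axons minus that in dorsal) lay between -0.44 (mt-Nd1, SE 0.29) and 0.15 (mt-Nd6, SE 0.30), so differences of these sizes between regions were not resolved.

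Some nuclear genes for the same complexes were called, all of them higher in axon pieces. Of 90 nuclear genes of the respiratory chain and ATP synthase, 85 were tested. In axons against dorsal in controls 3 rose and 0 fell, 74 of 85 had a fold change above 1, and the median log2 fold change was 0.53. In axons against ventral in controls 1 rose and 63 were above 1, with a median of 0.31. In mutants 8 rose against dorsal and 6 against ventral, 0 fell, and the medians were 0.27 and 0.21. Of all genes tested, 0.209%, 0.0554%, 0.456% and 0.443% were called higher in these comparisons, which share axon libraries within a genotype. The medians over all genes tested were -0.37, -0.38, -0.96 and -0.99 in the same order. Over the genes with a mean of at least 100 CPM they were 0.25, 0.08, 0.05 and -0.04. The one that rose in all 4 comparisons was Cox6a1, a small subunit of complex IV, which went from 806 to 1993 CPM in controls against dorsal (log2 fold change 1.48 ± 0.14 SE, edgeR adjusted p 0.0028) and from 1122 to 1886 CPM in mutants (0.90 ± 0.12 SE, edgeR adjusted p 0.00275). Cox8a rose in 3 of the 4 comparisons, and Cox4i1, Cox6c and Cox6b1 in 2 each. Cox4i1, the largest nuclear-encoded subunit of complex IV, rose by 1.10 in controls against dorsal and 1.01 in mutants against ventral on the log2 scale (edgeR adjusted p 0.0199 and 0.00901). The complex I subunit Ndufa1 rose in mutants against both regions, and the ATP synthase genes Atp5e, Atp5h and Atp5j2 rose in mutants against dorsal.

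With edgeR the other nuclear lists had 1 call in the axon comparisons. Of 76 tested genes for proteins of the mitochondrial ribosome, 0 were called with edgeR in any axon comparison, while 11 had an unadjusted p under 0.05 in controls against dorsal, 4 in controls against ventral, and 7 and 4 in mutants. DESeq2 called 6, 1, 2 and 1 of them in the same order, and limma voom 0. Their medians were 0.29, 0.02, 0.02 and -0.16 in the same order. Mrpl42, the most counted of them, stood at 582 CPM in dorsal and 598 CPM in axon controls. Of 14 tested genes for transcription and replication of mitochondrial DNA, 1 was called. Ssbp1, which coats single-stranded mitochondrial DNA, fell in mutant axons against dorsal, from 393 to 168 CPM, a log2 fold change of -1.08 ± 0.20 (SE) at an adjusted p (edgeR) of 0.0267. DESeq2, which called 3350 of all genes in that comparison, called 7 of the 14 lower there and 6 lower against ventral, and limma voom called 2 (Polrmt and Ssbp1) and 1 (Ssbp1). Tfam, which packs mitochondrial DNA and starts its transcription, stood at 63.8 CPM in dorsal and 115 CPM in axon mutants (edgeR adjusted p 0.536). The medians of this list were -0.70 and -0.08 in controls and -5.85 and -4.06 in mutants, where many members were at 0 in most axon libraries, so that these fitted medians are no measured folds.

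Of 25 tested genes that process or stabilise mitochondrial RNA and of 8 regulators of mitochondrial biogenesis, 0 were called with edgeR in the axon comparisons. At an unadjusted p under 0.05 there were at most 4 of the 25 and 1 of the 8 in a comparison. In mutants DESeq2 called 9 of the 25 lower in axons against dorsal and 7 against ventral, and limma voom 1 and 3. In controls DESeq2 called 1 and 2 lower, and limma voom 0. Of the 8, Ppargc1a, a coactivator of mitochondrial gene programmes, was called lower in mutant axons against both regions by DESeq2 and limma voom, and Gabpa in control axons against ventral by DESeq2. Hsd17b10, a subunit of the enzyme that cuts the 5′ ends of mitochondrial tRNAs, was the most counted of the 25, at 295 CPM in dorsal and 432 CPM in axon controls (edgeR adjusted p 0.855). Lrpprc, which keeps mitochondrial mRNAs stable, stood at 63.8 and 38.5 CPM (edgeR adjusted p 0.984). The annotated nuclear copies of mitochondrial genes stayed at or below 1.342 CPM per gene, with 3 of 7 tested and 0 called by edgeR (0 at an unadjusted p under 0.05), DESeq2 or limma voom in the axon comparisons.

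Markers of other RNA and cell types were set beside these results. Malat1, a long RNA that stays in the nucleus, fell in axon controls against dorsal from 4026 to 923 CPM (log2 fold change -1.87 ± 0.15 SE, edgeR adjusted p 0.00146). It was not called in the other axon comparisons, with log2 fold changes of -0.80 against ventral in controls and -0.81 and -1.01 against dorsal and ventral in mutants (edgeR adjusted p 0.147, 0.293 and 0.212). Of the 14 axon and neuron markers 12 were tested, and 3 (Kif1a, Nefm and Map1b) rose in controls against dorsal, 1 (Kif1a) against ventral, and 2 (Kif1a and Map1b) in each mutant comparison. Of the 12, 8 and 9 had log2 fold changes above 0 in controls against dorsal and ventral, and 9 and 8 in mutants. Tubb3 was at most 34.6 CPM in axon controls and 0.133 CPM in axon mutants. It reached 249 and 122 CPM in dorsal, and 391 and 97.2 CPM in ventral controls and mutants. The 11 mesenchyme markers summed to 629 to 2316 CPM in axon mutants against 58.8 to 199 CPM in ventral and 55.6 to 395 CPM in dorsal mutants, and 1 (Dcn) rose against ventral. In controls the same sum was 399.7 to 2526 CPM in axon, 55.5 to 1342 CPM in ventral and 1162 to 11430 CPM in dorsal pieces. The 9 erythroid markers summed to 608 to 33120 CPM in axon mutants, 2.27 to 1227 CPM in ventral and 176 to 7287 CPM in dorsal mutants, and 3 (Hbb-bs, Hba-a1 and Hba-a2) rose against ventral. In axon, ventral and dorsal controls the erythroid sums were 2650 to 9034 CPM, 275 to 5262 CPM and 728 to 24360 CPM. The 8 endothelial markers summed to 3.55 to 194 CPM in axon controls and 0.584 to 363 CPM in axon mutants, against 239.6 to 452 CPM in dorsal controls, 43.2 to 420.5 CPM in dorsal mutants, 23.7 to 179 CPM in ventral controls and 9.23 to 94.2 CPM in ventral mutants. Axon controls lay below dorsal controls, and the other axon ranges overlapped with those of the same genotype. edgeR called 0 of the 8 between axons and another region, with 4 at an unadjusted p under 0.05 in mutants against ventral and 0 in the other 3 comparisons. DESeq2 called 4 higher in mutant axons against ventral and 2 lower in control axons against dorsal, and limma voom called 0. The 9 pigment cell markers summed to 51 to 639.8 CPM in axon controls and 170.0 to 1283 CPM in axon mutants against 39.5 to 4912 CPM in dorsal controls, 3192 to 12390 CPM in dorsal mutants, 241 to 1189 CPM in ventral controls and 656 to 3982 CPM in ventral mutants, with Mlana and Gpr143 at 0 in all axon libraries. In mutant axons 3 of them (Dct, Tyr and Otx2) fell against dorsal and 1 (Dct) against ventral. The 9 astrocyte progenitor markers summed to 1165 to 3845 CPM and 1045 to 2172 CPM in axon controls and mutants. In dorsal controls and mutants they summed to 955.8 to 1424 CPM and 414.2 to 790.9 CPM. In ventral controls and mutants they summed to 1874 to 2194 CPM and 1399 to 2384 CPM. Fabp7 rose in both genotypes against dorsal, as did Slc1a3 in mutants, and 0 rose against ventral. Log2 fold changes were above 0 for 6 of the 9 against dorsal and 3 against ventral in controls, and for 5 and 2 in mutants. The part of these cell types and of Malat1 in the mitochondrial values was not tested.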

How the data were processed

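Counts per gene were measured by RNA sequencing in 27 libraries of the mouse OS at E14. Per the study's methods the authors laser-captured ethanol-fixed, cresyl violet-stained cryosections, amplified the cDNA by PCR, made Nextera XT libraries, which do not mark strand, and sequenced single-end reads of 150 bases. The deposited values were raw counts per gene, made by the authors with STAR on mm10 and HTSeq. Salmon is also named in the submitters' notes. Versions, annotation release and strand setting are not given in the sources used here. Reads that fit 2 places are left out by the counter's defaults, which lowers the counts of genes with a nuclear copy.

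Groups came from the sample labels. No label says that pieces with the same number come from 1 embryo. Correlations of deviations from the group means between regions of one number were -0.0195 to 0.115. If the numbers are not embryos, values within embryos lose their meaning. Control and mutant samples of 1 number were not paired (correlations -0.0509 to 0.0279). The labels do not say which embryos share a litter. The p-values set each difference against the spread left between these samples by the terms of the fit.

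CPM was the count per 1000000 total counts. Of the 16330 genes that exceeded 10 counts in 3 libraries or more, those with a count in the libraries fitted (14977 to 16330) were tested with edgeR 4.0.16 in R 4.3.3 (TMM scaling, robust quasi-likelihood F-test, two-sided), within a genotype with the embryo as block, or between genotypes within a region with batch as a term. The difference of the genotype effect between regions was fitted over all libraries. DESeq2 1.42.0, limma 3.58.1 (voom) and other scalings, filters and sample choices were alternatives. Shares and quotients of summed counts were described without a test. Scripts were tested on simulated data. Gene positions came from GENCODE M21, which matched 55227 of 55487 genes, and windows were compared by exact match with mm10. The rRNAs, mRNAs and tRNAs that passed the filter were named, and from each nuclear list the called genes or some of the 4 with the highest mean CPM. The members and lists were chosen with earlier results of these data known. E12 tissue of the study was not analysed here.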

Additional observations from a re-analysis of the deposited data

Results flagged for a closer look

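A sample that stood far from the others of its group was looked for in 91 combinations of a group with a gene, share or quotient, of which chance marks about 5%. It was found in 6. In axon control 2 the mt-Rnr2 to mt-Rnr1 quotient was 13.26, against 9.902 to 10.1 in the other axon controls. mt-Rnr1 stood at 2605 CPM in ventral mutant 3 against 1775 to 1912 CPM in the other ventral mutants, and at 6485 CPM in axon control 3 against 4152 to 4543 CPM in the other axon controls. mt-Cytb stood at 7463 CPM in dorsal mutant 3, below the 11780 to 13430 CPM of the other dorsal mutants. In axon mutant 5, mt-Tp stood at 42.73 CPM against 13.33 to 20.6 CPM, and mt-Co3 at 3.106 CPM against 0 in the other axon mutants.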

How the results depend on the processing

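The log2 fold changes of the 9 well counted genes in the 4 axon comparisons kept their direction under each of the alternatives run. Over genes and alternatives, 421 values stayed on their side of the threshold, 75 lost the call and 26 gained it. The number of called mitochondrial genes moved more. In axons against dorsal in controls (3 called) it was 6 with the newer edgeR method, 1 with only the 2 regions compared and 7 with all 27 libraries in 1 fit. In axons against ventral in controls (3) it was 1 with total count scaling, 6 with DESeq2, 6 with the newer edgeR method, 0 with only the 2 regions compared and 7 with all 27 libraries. In axons against dorsal in mutants (6) it was 3 with total count scaling and 3 with only the 2 regions compared. In ventral against dorsal mutants (0) DESeq2 and limma voom each called 1, where they called 864 and 64 of all genes, and between genotypes in axons (0) limma voom called 2, beside 45 of all genes. The cause of these moves was not tested. Leaving out each embryo in turn gave 0 to 2 in each control axon comparison, 3 to 5 in axons against dorsal and 6 to 9 in axons against ventral in mutants, and 0 in the other comparisons. Without the replicate block for the embryo the 4 axon counts were 2, 2, 4 and 8 in place of 3, 3, 6 and 9, and with the replicate number as a block between genotypes 0 were called in each region. In dorsal and ventral controls all 4 embryos correlated best with their own number, in the other region pairs 2 or 3 did. Shares and rRNA to mRNA quotients moved by less than 1 SD under each alternative. The nuclear copy limits the 6 mRNAs inside it and, in part, mt-Nd4 and mt-Co1, and the tRNA genes are shorter than a read.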
